A study of Homo sapiens with 12 samples.

Results

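The immediate-early and short-lived transcription factor mRNAs examined here are those of 10 genes, *FOS*, *FOSB*, *FOSL1*, *JUN*, *JUNB*, *JUND*, *EGR1*, *IER2*, *ATF3* and *MYC*, which were chosen by name. All 10 were found among the 58037 genes of the count table. The study sequenced polyA RNA of HCT116, a human colorectal carcinoma cell line with wild-type genotype, after 8 h with DMSO as the vehicle, with 10 μM Nutlin-3a, which frees p53 from MDM2, with 20 nM NVP-2, an inhibitor of the kinase CDK9 of P-TEFb, or with 10 μM Nutlin-3a and 20 nM NVP-2 together, and each of the 4 conditions had 3 samples. The table has a column for each of the 12 samples, but 0 of the 58037 genes had a different count in any column, and each column summed to 22720718 counts. The 12 columns were therefore counted as 1 sample, a single HCT116 profile whose treatment is not known, and this profile has no replicate. It follows that no drug effect, no spread between samples and no test between conditions is given below, and that each interval covers counting error alone.

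Immediate-early genes are those whose transcription starts within minutes of a stimulus without need of newly made protein, mostly through kinases that act on transcription factors already bound at their promoters. Many of them encode transcription factors. FOS and JUN proteins are basic leucine zipper proteins that pair to form AP-1, in which a JUN protein can pair with itself, with another JUN protein or with a FOS protein, whereas FOS proteins need a JUN partner. EGR1 is a zinc-finger factor that binds GC-rich DNA, ATF3 is a stress-induced basic leucine zipper factor, IER2 is a small nuclear protein induced by growth factors, and MYC pairs with MAX to bind E-boxes. Their mRNAs are known for short lives, and AU-rich elements in the 3′ UTR are a known signal for rapid decay. P-TEFb releases RNA polymerase II from pausing near the promoter.

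The profile had the markers of an epithelial line. All 6 epithelial marker genes had an RPKM (counts per kilobase of merged exons, scaled to the column total as in CPM) between 9.46 for *CLDN4* and 514.2 for *KRT8* (26.2 and 1983 with canonical transcripts), whereas the 9 markers of blood, endothelium, fibroblasts, muscle and liver lay between 0 and 0.972 (up to 1.48 with canonical transcripts), with *PTPRC*, a marker of blood cells, at 0 counts. Of the 22720718 counts 10.4% were mitochondrial. The 10 members together held 41088 counts, 0.181% of the column.

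The promoters of the members are shown first. The RefSeq promoter table (GRCh38.p14) holds 9 promoters for 8 of the members, with *FOSL1* and *MYC* not matched. The search covered 250 bases before to 50 bases after the start on both strands, with 6 motifs. These were the CArG box bound by SRF, the AP-1 site (TGACTCA or TGAGTCA), the CRE (TGACGTCA), the E-box (CACGTG), the EGR site (GCGTGGGCG or GCGGGGGCG) and the TATA box letters TATAAA, and the matches given here do not overlap. The 250 bases before the start are printed for the 5 genes with a match near the start or with a match to a factor site, 5′ to 3′ on the strand of the gene, with the matches in capitals.
*EGR1*: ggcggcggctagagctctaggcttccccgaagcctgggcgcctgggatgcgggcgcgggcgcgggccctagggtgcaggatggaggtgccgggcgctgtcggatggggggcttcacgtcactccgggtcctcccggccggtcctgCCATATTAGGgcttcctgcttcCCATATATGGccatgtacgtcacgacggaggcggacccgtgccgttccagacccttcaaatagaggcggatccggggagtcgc
*FOS*: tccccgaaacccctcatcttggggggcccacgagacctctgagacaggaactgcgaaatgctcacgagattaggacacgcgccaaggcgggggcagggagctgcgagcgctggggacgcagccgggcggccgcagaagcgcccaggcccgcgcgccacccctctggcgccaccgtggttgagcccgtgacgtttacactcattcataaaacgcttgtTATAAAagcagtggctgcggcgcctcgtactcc
*FOSB*: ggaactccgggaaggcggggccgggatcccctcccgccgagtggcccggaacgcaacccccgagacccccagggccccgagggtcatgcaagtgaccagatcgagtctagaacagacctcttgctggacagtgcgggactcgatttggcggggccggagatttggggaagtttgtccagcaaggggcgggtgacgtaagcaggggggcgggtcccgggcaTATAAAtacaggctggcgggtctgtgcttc
*JUNB*: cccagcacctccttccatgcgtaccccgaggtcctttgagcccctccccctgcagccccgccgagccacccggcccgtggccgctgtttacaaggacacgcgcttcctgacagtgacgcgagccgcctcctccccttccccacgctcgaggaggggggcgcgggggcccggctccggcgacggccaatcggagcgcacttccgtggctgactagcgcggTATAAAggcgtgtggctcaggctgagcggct
*JUND*: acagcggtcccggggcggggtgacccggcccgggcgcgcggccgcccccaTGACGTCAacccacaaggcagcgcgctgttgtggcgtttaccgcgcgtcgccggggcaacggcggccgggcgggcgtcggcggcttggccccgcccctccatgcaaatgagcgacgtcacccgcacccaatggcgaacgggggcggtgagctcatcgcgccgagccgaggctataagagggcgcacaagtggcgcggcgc

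These sequences lie at chr5:138465229-138465478 on the plus strand for *EGR1*, at chr14:75278578-75278827 on the plus strand for *FOS*, at chr19:45467746-45467995 on the plus strand for *FOSB*, at chr19:12791236-12791485 on the plus strand for *JUNB* and at chr19:18281623-18281872 on the minus strand for *JUND*. The *EGR1* promoter held 2 CArG boxes, which start 105 and 83 bases before the start of the gene. The CArG box is rare in such windows, being found in 454 of the 35116 promoters of the table (1.29%). *EGR1* was the only one of the 8 members searched with a match in its window. Bases further than 250 before the start were not searched, so this does not show that the other members lack a CArG box. TATAAA was found in 4049 promoters (11.5%). In *FOS*, *FOSB* and *JUNB* it begins 33, 30 and 31 bases, respectively, before the start. It also occurs in 1 of the 2 *ATF3* windows, 230 bases before a start that lies inside the span of the gene. *JUND* held the CRE, 200 bases before the start, a motif found in 649 promoters (1.85%). None of the 9 promoters held the AP-1, E-box or EGR letters, which occur in 4.95%, 7.26% and 5.77% of all promoters. That says only that these letters are not in these windows, and the matches are a description of sequence with no measured binding.

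AU-rich pentamers (ATTTA) were counted in the 3′ UTR of the canonical transcript of each member. Of the 10 members, 9 had at least 1, against 13042 of 19538 protein-coding genes with a 3′ UTR (66.8%), and against 76.1% of the 7924 genes whose 3′ UTR is within the range of lengths of the members, from 503 to 2170 nt. *FOS* had 5 pentamers in 809 nt, or 6.18 per 1000 bases, more than 94.7% of protein-coding genes. It was also the only member with the longer nonamer (TTATTTATT), which 8.36% of these genes have. *JUNB* followed with 2 in 503 nt (3.98 per 1000 bases) and *MYC* with 6 in 1996 nt (3.01 per 1000 bases). *ATF3* had 3 pentamers in 1223 nt and *JUN* 3 in 1287 nt. The density was lower in *FOSB*, with 3 in 2170 nt, in *JUND*, with 1 in 750 nt, in *FOSL1*, with 1 in 840 nt, and in *EGR1*, with 1 in 1225 nt. *IER2* had 0 in 1056 nt. The median of the members was 1.86 per 1000 bases, against 1.47 for all protein-coding genes and 1.65 for those of like length, and the members were spread from 0 in *IER2* to 6.18 in *FOS*. The richest 30 bases of the 3′ UTR are printed for *FOS*, the member with the highest density, and for *JUNB*, *FOSL1* and *EGR1*, which were more abundant, with the pentamers in capitals and T in place of U.
*FOS*: ttgtgtttttaATTTATTTAttaagatgga
*JUNB*: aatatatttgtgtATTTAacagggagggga
*FOSL1*: gagggcagctgctATTTAttttcctaaaga
*EGR1*: actgaaaatgtaaATTTAtaaatatattca

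In hg38 these stretches lie at chr14:75282057-75282086 on the plus strand (*FOS*), chr19:12793059-12793088 on the plus strand (*JUNB*), chr11:65892272-65892301 on the minus strand (*FOSL1*) and chr5:138469063-138469092 on the plus strand (*EGR1*). In the *FOS* stretch 2 pentamers share a base, whereas each of the other stretches has 1 pentamer.

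**Figure D1:**
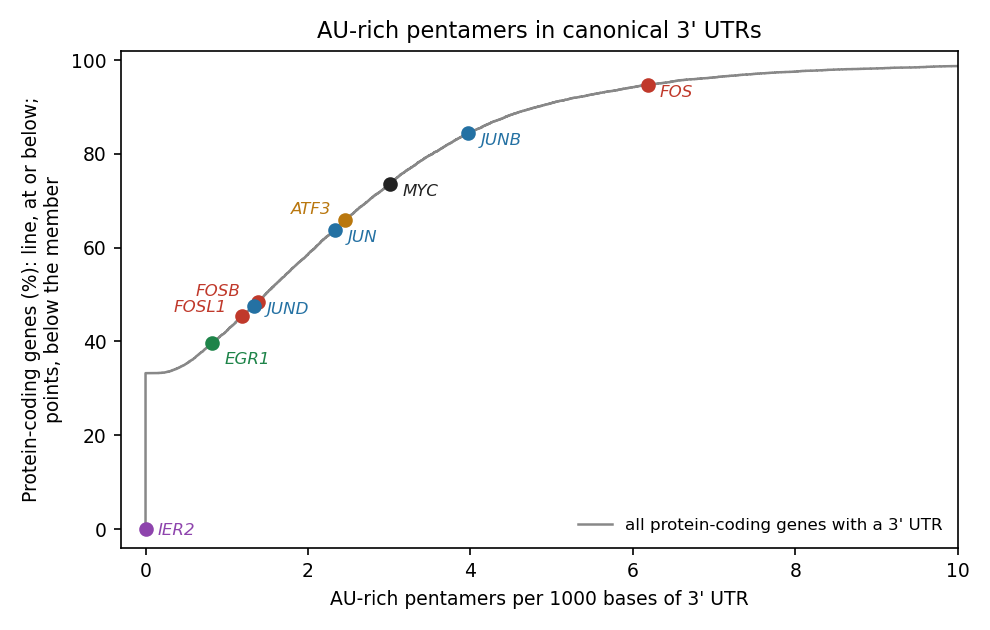
Number of AU-rich pentamers per 1000 bases of the canonical 3′ UTR (x axis) against the percent of protein-coding genes (y axis), where the line gives the percent at or below each density and the points the percent below each member. *FOS* sits at 6.18 per 1000 bases, above 94.7% of genes, *EGR1* and *FOSL1* sit below the middle of the curve, and *IER2* is at 0.

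The FOS genes were measured at very unequal levels. *FOSL1*, which encodes FRA-1, a FOS protein without the transactivation domain of FOS, had 11499 counts, that is 506.1 CPM (counts scaled to a column total of 1000000, 95% Wilson interval 496.9 to 515.4) and an RPKM of 268.2 (263.3 to 273.2). Only 110 of the 19629 protein-coding genes were higher by RPKM. *FOS* itself, the prototype immediate-early gene, had 217 counts, 9.55 CPM (8.36 to 10.9) and an RPKM of 3.00 (2.62 to 3.42), or of 4.54 (3.97 to 5.18) with the canonical transcript. *FOSB*, the third FOS gene, had 33 counts, 1.45 CPM (1.03 to 2.04) and an RPKM of 0.262 (0.186 to 0.367). Per length of merged exons, *FOSL1* was thus 89.5-fold above *FOS*, with an interval of 78.2 to 102.8 from the exact conditional method. *FOS* was 11.5-fold above *FOSB* (7.92 to 17.1). With canonical transcripts these ratios were 65.5 (57.3 to 75.3) and 11.8 (8.15 to 17.6), so the choice of length can move a ratio beyond its counting interval. *FOSL1* made up 98.8% of the summed RPKM of the FOS genes, *FOS* 1.10% and *FOSB* 0.0964%.

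The JUN genes were less unequal, and their order was *JUNB*, *JUND* and *JUN*. *JUNB*, whose protein is a weaker activator than JUN, had 4159 counts, 183.0 CPM (177.6 to 188.7) and an RPKM of 100.03 (97.0 to 103.1). *JUND*, the JUN gene known for steady rather than induced expression, had 1847 counts, 81.3 CPM (77.7 to 85.1) and an RPKM of 42.1 (40.3 to 44.1). *JUN* had 428 counts, 18.8 CPM (17.1 to 20.7) and an RPKM of 5.20 (4.73 to 5.71). *JUNB* therefore exceeded *JUND* 2.37-fold per length (2.25 to 2.51), and *JUND* exceeded *JUN* 8.11-fold (7.29 to 9.03). The canonical lengths left the first ratio the same and gave 7.29 (6.56 to 8.11) for the second. Of the summed RPKM of the JUN genes, 67.9% was *JUNB*, 28.6% *JUND* and 3.53% *JUN*. *JUN*, *JUNB* and *JUND* have no intron in the canonical transcript, whereas *FOS*, *FOSB* and *FOSL1* have 4 exons each.

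As a whole the FOS side summed to an RPKM of 271.5 ± 2.51 (counting SE) and the JUN side to 147.4 ± 1.85, a ratio of 1.84 (2.04 with canonical transcripts). This ratio was carried by *FOSL1*: without it the ratio was 0.0221. Of *FOSL2*, *BATF*, *BATF2*, *BATF3* and *JDP2*, 1 of 5 reached an RPKM of 1, against 44.6% of all protein-coding genes. This was *FOSL2*, which encodes FRA-2, with 199 counts and an RPKM of 1.22. *BATF3* had an RPKM of 0.702 (2.16 with the canonical transcript) and *JDP2* of 0.316, *BATF2* had 8 counts, and *BATF* had 0 counts, for which 3 counts of the total would be 0.132 CPM. *FOSL1* was 219.3-fold above *FOSL2* per length (190.6 to 253.6). Of the 6 MAF genes, relatives of AP-1 with a basic leucine zipper of their own, the small MAF genes *MAFG*, *MAFK* and *MAFF* reached RPKM values of 45.2, 18.2 and 3.64 (46.8, 24.1 and 8.60 with canonical transcripts), and *MAF* had 0 counts.

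**Figure D2:**
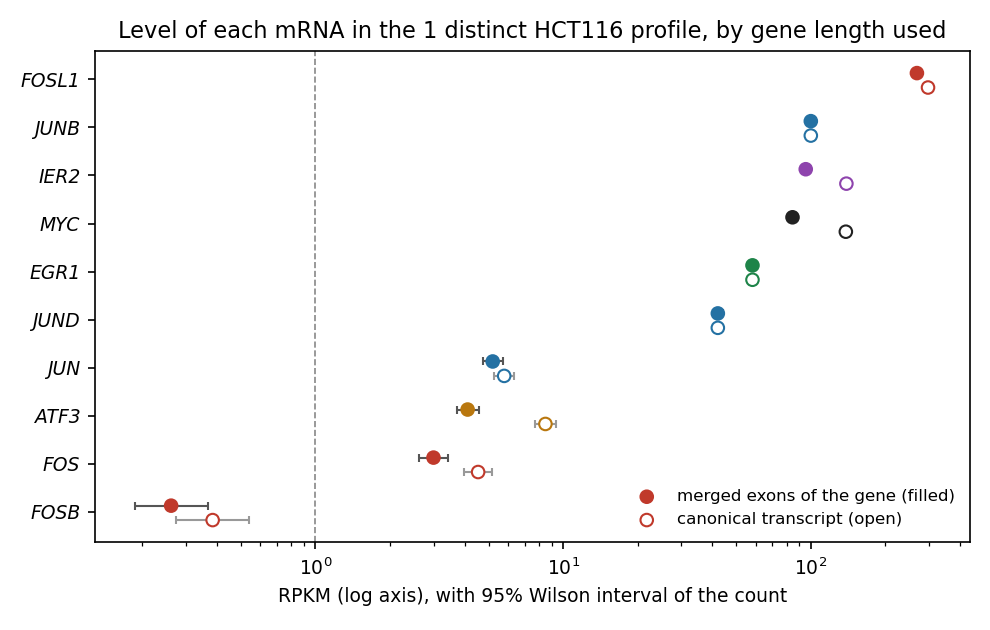
RPKM of each of the 10 mRNAs on a log axis in the single distinct HCT116 profile, with filled points for merged exons, open points for the canonical transcript, bars for the 95% Wilson interval of the count and a dashed line at an RPKM of 1. *FOSL1* is highest at 268.2, and *JUN*, *ATF3*, *FOS* and *FOSB* are separated from the other 6 members by the step between 42.1 and 5.20.

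*EGR1* had 4145 counts, 182.4 CPM (177.0 to 188.1) and an RPKM of 58.2 (56.4 to 60.0). It was thus 19.4-fold above *FOS* per length (16.9 to 22.3) and 11.2-fold above *JUN* (10.1 to 12.4), although the 3 mRNAs are commonly induced by the same stimuli. With canonical transcripts these ratios were 12.8 (11.2 to 14.8) and 10.1 (9.10 to 11.1). *EGR1* was the only EGR gene above an RPKM of 1. *EGR2* had 55 counts and an RPKM of 0.653, *EGR3* 45 counts and 0.394, and *EGR4* 2 counts, so that *EGR1* was 89.1-fold (68.3 to 118.4) above *EGR2* and 147.8-fold (110.2 to 202.9) above *EGR3*. The canonical lengths gave 71.6 (54.9 to 95.2) and 132.5 (98.9 to 182.0). NAB1 and NAB2 bind EGR proteins and repress their activity, and *NAB2* is itself a known EGR1 target. *NAB2* had 3103 counts and an RPKM of 47.7, within 1.22-fold of *EGR1* (1.16 to 1.28), and *NAB1* 968 counts and an RPKM of 8.72. With canonical transcripts *EGR1* was 1.06-fold above *NAB2* (1.01 to 1.11).

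*IER2* had 6675 counts, 293.8 CPM (286.8 to 300.9) and an RPKM of 95.4 (93.2 to 97.7). All 3 of the other IER genes also passed an RPKM of 1, which 44.6% of all protein-coding genes reached. *IER3*, an early response gene linked to cell survival, had 9481 counts and an RPKM of 309.1, 3.24-fold above *IER2* (3.14 to 3.34) and above each of the 10 members. *IER5L* reached 63.5 and *IER5* 13.1.

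*ATF3* had 374 counts, 16.5 CPM (14.9 to 18.2) and an RPKM of 4.12 (3.72 to 4.56), or of 8.48 (7.67 to 9.39) with the canonical transcript. It is also counted among p53 target genes, and its level here cannot be tied to a treatment. Of the 9 other ATF and CREB genes listed, 8 had an RPKM of at least 1, against 44.6% of all protein-coding genes. *ATF4*, the effector of the integrated stress response and a known activator of *ATF3*, had 4892 counts and an RPKM of 82.4 (151.7 with the canonical transcript), 20.0-fold above *ATF3* (18.0 to 22.3). The canonical lengths gave 17.9-fold (16.1 to 19.9). With merged exons *ATF6B* and *ATF5* followed at RPKM values of 15.6 and 4.38.

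*MYC* had the most counts of the members, 11711, or 515.4 CPM (506.2 to 524.9), but its merged exons are 6109 nt long and its RPKM was 84.4 (82.9 to 85.9). With the canonical transcript its RPKM was 138.5 (136.0 to 141.1). By CPM its interval overlapped that of *FOSL1* (496.9 to 515.4). By RPKM it came after *FOSL1*, *JUNB* and *IER2* with merged exons, whereas with canonical transcripts it was above *JUNB* and did not differ from *IER2* beyond counting error. Of the other MYC genes *MYCN* had 0 counts and *MYCL* 19. Of the 12 other genes of the MYC network 7 had an RPKM of at least 1, against 44.6% of all protein-coding genes. The highest with merged exons were *MLX* at 16.0, *MXI1* at 5.25 and *MLXIPL* at 4.12 (28.8, 8.93 and 6.10 with canonical transcripts). *MAX*, which encodes the partner that MYC needs for DNA binding, had 391 counts and an RPKM of 2.75 (8.56 with the canonical transcript). *MYC* exceeded it 30.7-fold with merged exons (27.7 to 34.0) and 16.2-fold with canonical transcripts (14.6 to 17.9).

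**Figure D3:**
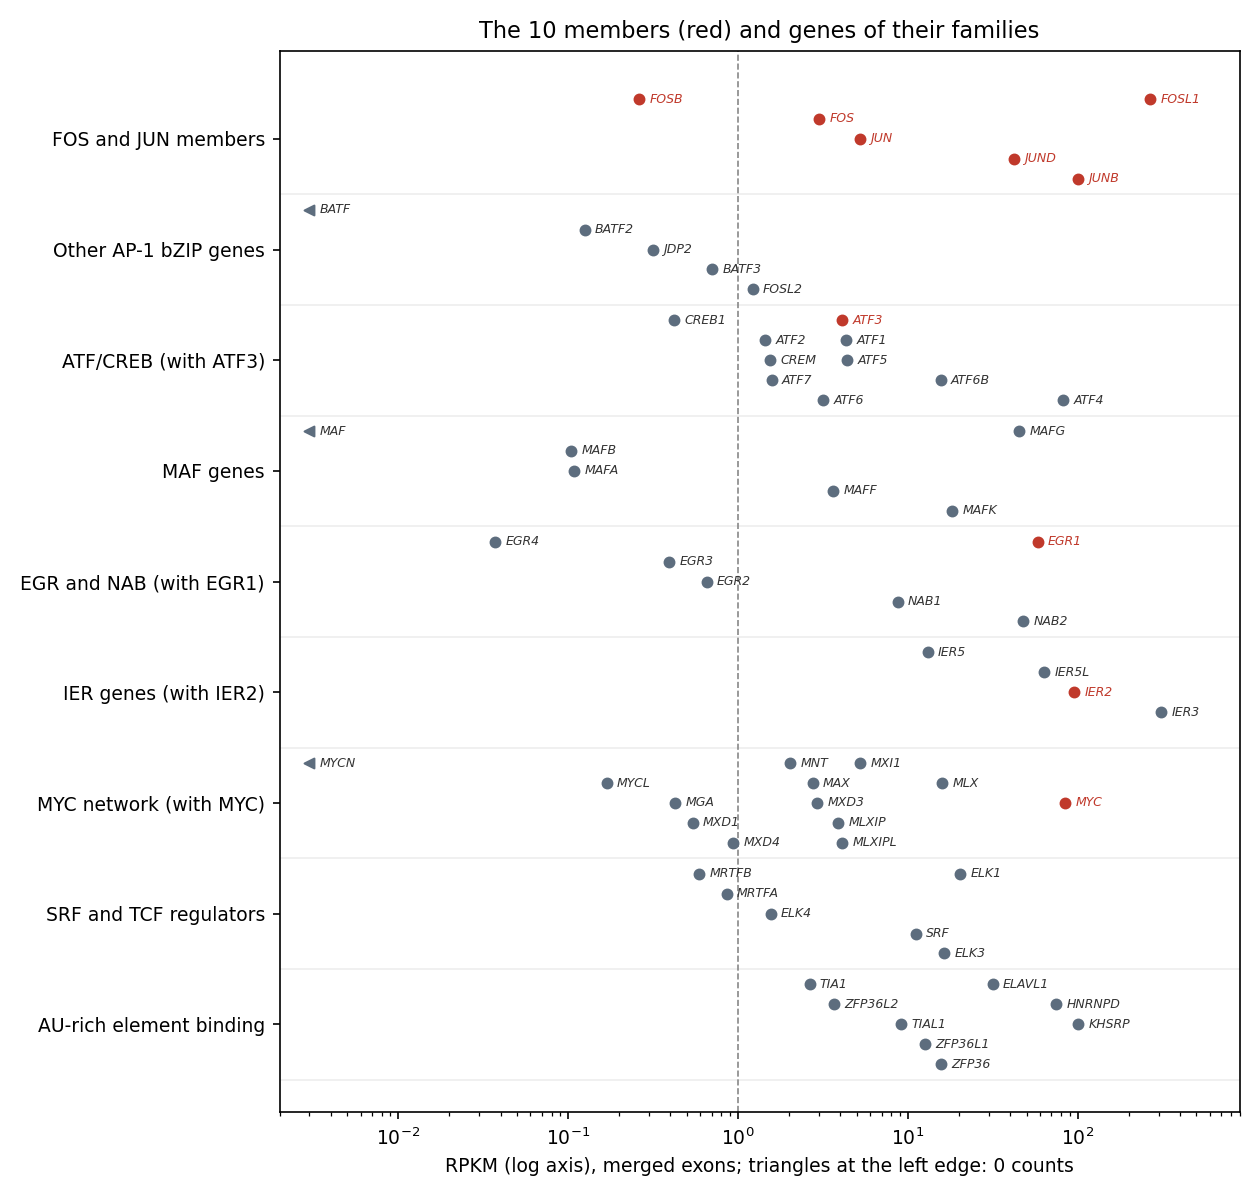
RPKM on a log axis for the 10 members (red) and for genes of their families and regulators (grey), 1 row per family, with a dashed line at an RPKM of 1 and triangles at the left edge for genes at 0 counts. *EGR1* and *MYC* stand to the right of the other EGR and MYC genes, *FOSL1* to the right of the other FOS, JUN, BATF and JDP2 genes shown, and *IER3* to the right of *IER2*.

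By RPKM the order of the members was *FOSL1*, *JUNB*, *IER2*, *MYC*, *EGR1*, *JUND*, *JUN*, *ATF3*, *FOS* and *FOSB*, over a range of 1025.4-fold (772.9-fold with canonical transcripts). For each of the 9 pairs of neighbours the interval of the ratio lay above 1, though for *JUNB* over *IER2* only just, at 1.05 (1.01 to 1.09). The other close pairs were *IER2* over *MYC* at 1.13 (1.10 to 1.17), *JUN* over *ATF3* at 1.26 (1.10 to 1.45) and *ATF3* over *FOS* at 1.37 (1.16 to 1.63). The gene length bears on this order, because the merged exons exceed the canonical transcript by a factor between 1 for *JUNB*, *JUND* and *EGR1* and 2.06 for *ATF3*. With canonical transcripts 42 of the 45 pairs of members kept their order. The 3 that turned were *JUNB* against *IER2*, *JUNB* against *MYC* and *JUN* against *ATF3*, for which the RPKM values became 139.2 for *IER2*, 138.5 for *MYC*, 100.03 for *JUNB*, 8.48 for *ATF3* and 5.78 for *JUN*. *IER2* and *MYC* then did not differ beyond counting error, with a ratio of 1.01 (0.975 to 1.04).

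Of the 10 members 9 had an RPKM of at least 1, the limit the study's methods set for an expressed gene, and *FOSB* did not. Among all 19629 protein-coding genes the share at or above this limit was 44.6%. *FOSL1*, *JUNB*, *IER2*, *MYC*, *EGR1* and *JUND* were each above at least 95.2% of protein-coding genes, *JUN*, *ATF3* and *FOS* above 76.0%, 72.9% and 68.8%, and *FOSB* above 43.1%. The median RPKM of the members was 50.1, against 1.86 for the 14850 protein-coding genes with at least 1 count.

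**Figure D4:**
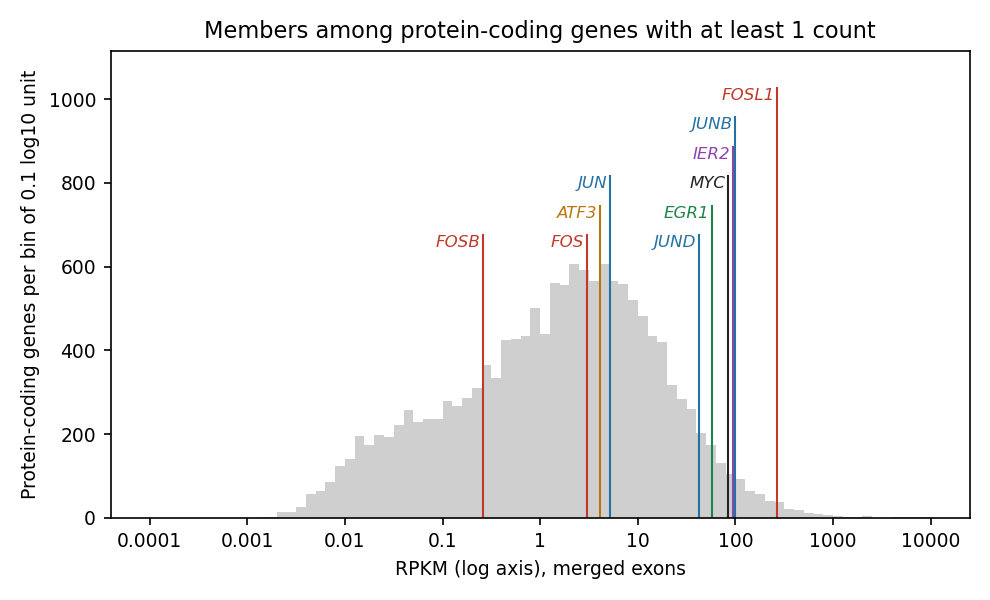
Distribution of RPKM (log axis) over the 14850 protein-coding genes with at least 1 count, as genes per bin, with a line at each member. The members form an upper set of 6 genes from *JUND* at 42.1 to *FOSL1* at 268.2, a set of *JUN*, *ATF3* and *FOS* between 3.00 and 5.20 in the middle of the distribution, and *FOSB* at 0.262.

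Taken by family, the 10 members summed to an RPKM of 660.9 ± 3.54 (counting SE), of which the FOS and JUN genes gave 63.4%, *IER2* 14.4%, *MYC* 12.8%, *EGR1* 8.80% and *ATF3* 0.623%. By CPM, without regard to length, the shares were 44.3% for the FOS and JUN genes, 28.5% for *MYC*, 16.2% for *IER2*, 10.1% for *EGR1* and 0.910% for *ATF3*.

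SRF and its ternary complex partners bind CArG boxes such as those of *EGR1* and pass on growth factor signals to immediate-early genes. With merged exons 4 of the 6 genes listed had an RPKM of at least 1, against 44.6% of all protein-coding genes. All 6 reached an RPKM of at least 1 with canonical transcripts, for which the share of all protein-coding genes was not computed. The highest with merged exons were *ELK1* at 20.4, *ELK3* at 16.4 and *SRF* at 11.2. Proteins that bind AU-rich elements either speed or slow the decay of mRNAs that carry them. The 8 genes listed for them all had an RPKM of at least 1, against 44.6% of all protein-coding genes. *KHSRP*, a decay factor, had an RPKM of 100.9, *HNRNPD*, which encodes AUF1, 74.9 (171.1 with the canonical transcript), and *ELAVL1*, which encodes the stabilizing protein HuR, 31.6.

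The genes lie on 6 chromosomes in hg38. *FOS* spans 75278826 to 75282230 of chromosome 14 on the plus strand, *FOSL1* 65892049 to 65900573 of chromosome 11 on the minus strand, *EGR1* 138465479 to 138469303 of chromosome 5 on the plus strand, and *MYC* 127735434 to 127742951 of chromosome 8 on the plus strand. Chromosome 1 carries *JUN* (58776845 to 58784048, minus strand) and *ATF3* (212565334 to 212620777, plus strand). The other 4 are on chromosome 19, where *JUNB* (12791486 to 12793315, plus strand), *IER2* (13150411 to 13154911, plus strand), *JUND* (18279694 to 18281622, minus strand) and *FOSB* (45467995 to 45475179, plus strand) are separate loci. In GENCODE v44 the exons of all 10 members shared 0 bases with another gene of the same strand. Exons of antisense genes covered 1608 of the 3079 merged bases of *IER2*, 259 of 1830 of *JUNB* and 194 of 6109 of *MYC*. The authors counted reads by strand, so that reads of these antisense genes are not meant to enter the counts of the members. They counted with Gencode version 25, in which these overlaps were not checked.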

How the data were processed

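The authors mapped single-end reads of 75 bases to hg38 and rRNA sequences with ContextMap, using BWA, and the deposited table holds raw counts of reads per gene, made by strand with featureCounts and Gencode version 25, without normalization. The 12 columns, assigned to samples by name, held the same values, so the column of the first DMSO sample was read as 1 profile of unknown treatment, and the planned edgeR tests between conditions were not run. Identifiers without their suffix were matched to GENCODE v44, with 56948 of 58037 found, and symbols, merged exon lengths and canonical transcripts were taken from it. Because the counts were made with version 25, exons that only v44 holds would add length but no counts, and this was not tested. CPM is relative to the column total, and RPKM divides it by the merged exon length, so a gene with unused long isoforms reads low. Count intervals are 95% Wilson intervals. Ratio intervals are exact conditional (Clopper-Pearson) intervals and compare counts within this profile only. Motif searches and intervals were tested on simulated data. Members and gene lists were chosen with earlier results of these data known. Of each list the 3 highest genes and those at 0 counts are named, and *MAX*, *MYCL*, *EGR3*, *EGR4* and *BATF2* were named after their values were seen. Some genes of these lists are not reported here. Protein identity between members was not analysed here. Python 3.11.15 with pandas 2.3.3 and scipy 1.17.1 was used.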

Additional observations from a re-analysis of the deposited data

How the results depend on the processing

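No paired analysis was possible because the 12 columns do not differ, so that a replicate block, DESeq2, other filters and fits with a replicate omitted had no result to give. The number of members at an RPKM of at least 1 stayed at 9 with a limit of 0.5 or with canonical transcripts and was 10 with a CPM of at least 1. The share of all protein-coding genes was computed only for an RPKM of at least 1 with merged exons, at 44.6%. The counts of members at the other limits therefore have no share to be set against. With canonical transcripts in place of merged exons, the shares of the summed RPKM were 38.0% for the FOS side, 18.6% for the JUN side, 56.7% for both, 7.32% for *EGR1*, 17.5% for *IER2*, 1.07% for *ATF3* and 17.4% for *MYC*. With CPM they were 28.6%, 15.7%, 44.3%, 10.1%, 16.2%, 0.910% and 28.5%, in the same order. Leaving mitochondrial genes out of the total raised every CPM and RPKM by the same factor of 1.12, and a total over protein-coding genes raised every CPM by 1.10, with no change of order. Canonical transcripts raised the RPKM of the 10 members by a factor between 1 and 2.06, and that of some other genes by more. With the nonamer in place of the pentamer, 1 member rather than 9 carried an AU-rich element. Counts of promoter matches were the same in the 250 bases before the start alone. At this depth 3 counts correspond to 0.132 CPM.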

Other observations

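Of 32 further immediate-early genes in the same profile, 26 had an RPKM of at least 1, against 44.6% of all protein-coding genes. The list ran from 0.00884 to 135.4 with a median of 8.25, against 0.262 to 268.2 with a median of 50.1 for the 10 members. The highest were *ID1* at 135.4, whose protein blocks basic helix-loop-helix factors, *KLF10* at 55.4, a zinc-finger repressor, and *TIPARP* at 51.3, a mono-ADP-ribosyltransferase.

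Of the 8 kinases listed from the ERK and JNK pathways, which phosphorylate FOS, JUN and the SRF partners, 6 had an RPKM of at least 1. Among all protein-coding genes the share was 44.6%. *MAPK3*, which encodes ERK1, had an RPKM of 14.7 (30.2 with the canonical transcript), and *RPS6KA1*, which encodes RSK1, of 6.99 (12.9). The reference genes *GAPDH* and *ACTB* had RPKM values of 2110 and 808.9 with merged exons, and of 3935 and 1966 with canonical transcripts.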
